A study of Mus musculus with 28 samples.

Results

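The Zfp genes are mouse genes named for a zinc finger protein, and 209 of them were transcribed in wild-type (WT) mouse embryonic stem cells (mESCs). A gene was taken when its symbol was Zfp followed by digits and at most a letter, and when its mean RPKM over the 2 WT libraries of steady-state Bru-seq was above 1. RPKM is the number of reads scaled to a length of the gene and the size of the library. The study's methods name whole genes as the unit of counting, but the deposited values give whole reads with the summed length of a gene's introns, as described with the gene structures. Of 390 such symbols in tables of 24984 genes, 209 passed, and the pluripotency gene Zfp42 was left out by the rule. Bru-seq isolates RNA labelled with bromouridine (BrU) and so reads RNA made during the pulse. WT and EloA null CCE28 mESCs, grown on feeders in LIF medium with 2 kinase inhibitors and then depleted of feeders, were labelled for 10 min with 2 mM BrU (steady state). Other dishes of both genotypes were held in 1 µM flavopiridol (FP), an inhibitor of the release of paused polymerase II, for 60 min and were labelled for 5 min or 10 min after the drug was washed out (5-min and 10-min recovery). Each genotype had 2 libraries per condition, 12 in all. The study's legends call the Bru-seq duplicates independent experiments, and the labels do not say which cultures they came from, so that the p-values given here measure the spread between these libraries. The labels give 1 EloA null line, null for Elongin A, an elongation factor of polymerase II.

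Most proteins of this family carry strings of C2H2 zinc fingers, each of which can read a few bases of DNA. Many also carry a KRAB domain, which recruits TRIM28 and, through it, the H3K9 methyltransferase SETDB1, and these keep retrotransposons and imprinted loci silent in embryonic stem cells. Such genes lie in clusters that arose by repeated duplication, so that neighbours resemble one another in sequence. Zfp is only a naming root, and some of its genes encode RNA-binding proteins, ubiquitin ligases or cofactors.

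One label contradicts itself: the first steady-state library has EloA null in its title and wild type as its genotype, and the title decided its group here. Nascent RNA of Eloa, the targeted gene, was 1.18 and 1.16 RPKM in the WT libraries and 1.96 and 1.89 RPKM in the libraries labelled EloA null in steady state. It was also higher in the libraries labelled EloA null at both recovery times, by 1.97-fold at 5 min and 1.58-fold at 10 min, so that Eloa RNA does not check the label. The treatment label names CJ7 cells while the growth label names CCE28. The 10 embryonic stem cell markers summed to between 93.8 and 169 RPKM per library, and 10 feeder fibroblast markers to between 1.10 and 3.30 RPKM, with none of these markers at 0 in all libraries. The smallest library held 9857527 reads (WT, 5-min recovery) and the largest 28547356 (EloA null, 10-min recovery), as worked out from the steps of the RPKM values. The Zfp genes took between 1.57% and 1.71% of the reads in steady state and 5-min recovery and between 2.02% and 2.11% in 10-min recovery.

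Of the Zfp symbols that were not taken, 9 were at 0 in both WT libraries and 78 lay between 0.5 and 1 RPKM. The closest below the limit were Zfp473 (0.987 RPKM), Zfp37 (0.995 RPKM) and Zfp560 (0.996 RPKM), and the closest above it were Zfp597 (1.00 RPKM), Zfp454 (1.00 RPKM) and Zfp345 (1.01 RPKM). In such bulk libraries, fewer transcribing cells and less RNA per cell cannot be told apart. Among the 209, 90 lay between 1 and 2 RPKM, 92 between 2 and 5, 23 between 5 and 10, and 4 above 10. Zfp57, which guards imprinted loci, was far above the others, with 33.8 and 29.8 RPKM in the WT libraries and 34.1 and 29.0 RPKM in the EloA null libraries. Zfp961 followed with 19.7 and 18.0 RPKM in WT. Zfp207, whose product binds the spindle checkpoint protein BUB3, had 13.0 and 13.6 RPKM, and Zfp202, which encodes a SCAN and KRAB repressor of lipid metabolism genes, had 12.8 RPKM in each. Both WT values of Zfp207 lay above those of Zfp202, by less than 1 RPKM. The other 6 of the 10 highest were Zfp91 (a ubiquitin ligase, WT mean 9.85 RPKM), Zfp59 (9.11), Zfp936 (8.97), Zfp990 (8.22), Zfp706 (a factor that aids the exit from naive pluripotency, 7.84) and Zfp985 (7.78). Neighbours in this list differed by less than 1 RPKM. Zfp936 (44.8%), Zfp990 (41.0%) and Zfp985 (49.6%) are the ones in which under 50% of the 31-base words of the gene occur only once in the genome, and the authors kept uniquely aligned reads.

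**Figure D1:**
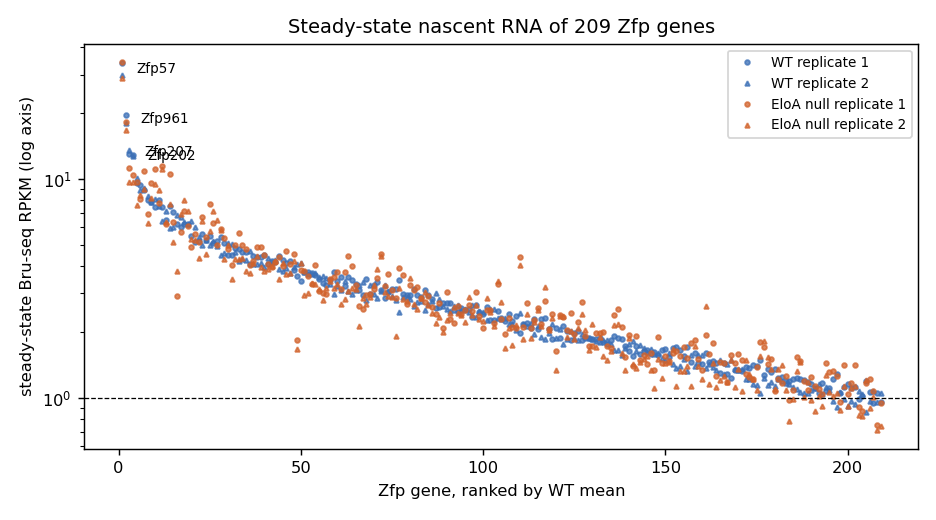
Steady-state Bru-seq RPKM (log axis) of the 209 Zfp genes, ranked by their WT mean, with 1 point per library for 2 WT and 2 EloA null libraries; the dashed line is the limit of 1 RPKM. Zfp57 sits alone near 31.8 RPKM, and 90 genes lie between 1 and 2 RPKM and 92 between 2 and 5, where the libraries of both genotypes run together.

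All 209 matched RefSeq protein-coding genes on GRCm38 by symbol. Chromosome 7 held 50 of them (23.9%, against 6.85% of 7178 other protein-coding genes with a WT mean above 1 RPKM), and chromosome 17 held 26 (12.4% against 4.63%). In all, 76 genes (36.4%) lay in 17 clusters of at least 3 members with starts no more than 250 kb apart. The largest, on chromosome 7 from 29768552 to 30169741, held 9 genes, among them Zfp568, which silences a placental promoter of Igf2. The next, on chromosome 17 from 21450374 to 21962464, held 7. The Zfp genes were shorter than the other genes, with a median span of 16.1 kb against 23.3 kb, but had more exon sequence (median 3771 against 3112 bases), so that introns made up 80.2% of the span against 88.0%. Taken with the summed intron length, 96.9% to 97.2% of the expressed genes gave whole reads (within 0.05 of a read), against 9.55% to 10.5% with the whole span and 9.65% to 10.7% with the summed exons, so that the large finger-coding exons do not enter the lengths behind them. Median GC content of the span was 42.8% against 45.2%. The median share of 31-base words that occur once in the genome was 92.9%, and it was under 50% in 18 genes, with Zfp960 (7.11%) and Zfp600 (7.61%) the lowest.

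The 300 bases around the start (250 before, 50 after) were known from RefSeq for 172 of the 209. They held a median of 16 CpG dinucleotides against 23 around the starts of 5762 other genes. The GC box GGGCGG, read on both strands, was in 49.4% of the Zfp promoters, in 67.7% of those of other genes and in 35.7% of all 32851 promoters. For the motifs the other genes numbered 5855. The CCAAT box, spelled CCAAT, was in 52.9%, 39.7% and 37.4%, and the TATA box TATAAA in 6.98%, 6.75% and 13.6%. The letters ACTACA, which begin the site read by the activator ZFP143, were in 20.9%, 11.4% and 10.3%. The letters TGCCGC, the core read by ZFP57, were in 19.2%, 21.0% and 11.6%.

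Steady-state levels of most Zfp genes differed little between the 2 genotypes. The median log2 ratio of EloA null over WT was -0.01, against 0.04 over all expressed genes (RPKM above 0.5 in either genotype) and 0.0095 over the other genes with a WT mean above 1 RPKM. In 166 of 209 genes the means lay within 1.2-fold. Of the 209, 3 were more than 1.5-fold higher in EloA null and 2 more than 1.5-fold lower, where 7.21% and 2.1% of all expressed genes were. These shares include genes expressed in EloA null alone, which the choice by WT level leaves out. Of genes above 0.5 RPKM in both genotypes 6.23% passed in either direction. No share was worked out for genes with a WT mean above 1 RPKM. Since WT steady-state libraries chose the genes, the steady-state contrast is a description with no test.

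The 2 lower genes were Zfp981, with 3.60 and 4.11 RPKM in WT and 1.84 and 1.67 RPKM in EloA null (2.20-fold lower), and Zfp992, with 6.24 and 6.82 RPKM in WT and 2.93 and 3.80 RPKM in EloA null (1.94-fold lower). In both the genotypes stood well apart. Zfp296, which encodes a partner of KLF4 that aids reprogramming, had 1.97 and 2.43 RPKM in WT and 4.38 and 4.05 RPKM in EloA null (1.92-fold higher), from 87 to 209 reads a library. Zfp219 had 7.44 and 6.40 RPKM in WT and 11.5 and 11.1 RPKM in EloA null (1.63-fold higher). Zfp593 was the other gene past the limit (1.53-fold higher), with 12 to 23 reads a library. With the trend of the ratio along GC content removed, 3 genes passed the limit (6.95% of all expressed genes did). These were Zfp296 higher and Zfp981 and Zfp992 lower, and the log2 ratio of Zfp219 fell to 0.43. Without the Zfp genes whose words are mostly repeated in the genome, 3 passed (9.31% of all expressed genes did) and none was lower.

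**Figure D2:**
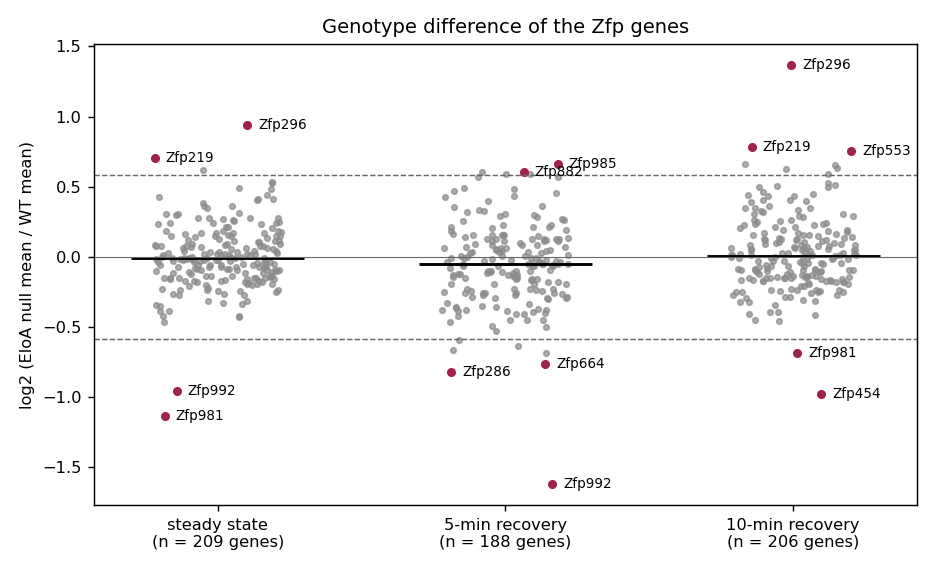
Log2 ratio of mean RPKM, EloA null over WT, for each expressed Zfp gene (1 point) in steady state (209 genes), 5-min recovery (188) and 10-min recovery (206); black bars are medians and dashed lines mark 1.5-fold. The medians lie at -0.01, -0.05 and 0.01, and a few named genes such as Zfp992, Zfp981 and Zfp296 stand outside the lines.

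The recovery libraries ask the same question of newly released polymerase, in samples that the choice of genes did not use. At 5 min, 188 of the Zfp genes were expressed, and 5 were more than 1.5-fold higher and 7 more than 1.5-fold lower in EloA null, where 5.4% and 6.72% of all expressed genes were. With the filter on low values left out, 5 of 209 were higher and 12 lower, where 32.7% of all genes passed in either direction. At 10 min, 206 were expressed, and 8 were higher and 2 lower, where 9.41% and 3.01% of all expressed genes were. The median log2 ratio was -0.05 at 5 min (all expressed genes -0.06, other genes above 1 RPKM in WT steady state -0.08) and 0.01 at 10 min (0.06 and 0.03). Some genes passed the filter through the genotype in which they were higher. Of the genes past the limit these were Zfp664 and Zfp286 at 5 min and Zfp454 at 10 min, all lower in EloA null. A setting added with the values known kept genes above 0.5 RPKM in both genotypes. In it 5 of 179 were higher and 5 lower at 5 min, where 7.36% of all such genes passed in either direction. At 10 min 8 of 204 were higher and 1 lower, where 8.68% passed. Dividing each library by its median turned the split at 5 min to 7 higher and 5 lower, and at 10 min to 3 higher and 2 lower. With this scaling 12.2% and 10.8% of all expressed genes passed in either direction. Removal of the GC trend gave 5 higher and 4 lower at 5 min, and 4 higher and 2 lower at 10 min. There 12.1% and 9.51% of all expressed genes passed.

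No Zfp gene passed the test of limma at an adjusted p of 0.05 at either time, and neither did any other gene (0% of all expressed genes at both). With the replicate number as a block, 1 of 188 Zfp genes passed at 5 min (1.42% of all genes) and 0 of 206 at 10 min (0%). At an unadjusted p under 0.05, 13 of 188 Zfp genes passed at 5 min (9.42% of all genes did) and 36 of 206 at 10 min (20.5%). When all 12 libraries shared one estimate of the spread, 8 Zfp genes passed at 5 min (5.92% of all genes), namely Zfp985, Zfp219, Zfp532 and Zfp827 higher and Zfp992, Zfp981, Zfp664 and Zfp715 lower, and 5 passed at 10 min (2.58%), namely Zfp219, Zfp827, Zfp296 and Zfp688 higher and Zfp981 lower. Of the 8, Zfp664 entered the test through WT alone, where it was higher, so its pass is no support for a difference. The change in the genotype effect from 5 to 10 min passed for 0 of 207 Zfp genes. At an unadjusted p under 0.05, 5 passed (3.95% of 10862 genes). In that test 6 genes of the whole table passed (0.0552%).

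The largest difference was in Zfp992 at 5 min, with 4.15 and 4.54 RPKM in WT and 1.51 and 1.32 RPKM in EloA null. The limma log2 difference was -1.56 ± 0.16 (SE), with an adjusted p of 0.0865 within the 4 libraries and 0.00207 with all 12. At 10 min it had 0.464 and 0.374 RPKM in WT and 0.153 and 0.172 RPKM in EloA null, below the limit for a test. The genotypes did not overlap in any condition. That held for 27 Zfp genes lower in EloA null (12.9%, against 10.1% of 8216 expressed genes) and for 15 higher (7.18% against 8.79%). The Zfp genes were counted here over all 209, without the filter on low values, so that these shares are not like for like. With 2 libraries a genotype, lack of overlap is thus common and says little of a single gene. Zfp981 had 2.20 and 2.31 RPKM in WT and 1.33 and 1.52 RPKM in EloA null at 5 min, and 5.17 and 5.58 against 3.19 and 3.49 RPKM at 10 min (adjusted p by limma 0.377 and 0.103, with all 12 libraries 0.0199 and 0.0227). Without the filter on low values, Zfp981 and Zfp992 were the only Zfp genes past 1.5-fold in the same direction in all 3 conditions. Both were lower. No share over all genes was worked out for this count, so it says nothing particular of the Zfp genes. With the GC trend removed, Zfp981 fell just short of the limit at 5 min (log2 ratio -0.58). Zfp981 and Zfp992 are neighbours on chromosome 4, and the other genes of that stretch are described next.

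On chromosome 4 a stretch from Zfp990 (chr4:145510759-145538251) to Zfp984 (chr4:147753974-147809788) holds 9 of the Zfp genes, in the order Zfp990, Zfp980, Zfp600, Zfp992, Zfp981, Zfp982, Zfp985, Zfp979 and Zfp984. Zfp992 (chr4:146449030-146469440) and Zfp981 (chr4:146502000-146539395) start 53.0 kb apart and were lower in EloA null. Past a gap of 941 kb between the starts of Zfp981 and Zfp982, Zfp985 (chr4:147553277-147585201) was higher in EloA null in each condition. It had 7.47 and 8.08 RPKM in WT and 11.2 and 9.53 RPKM in EloA null in steady state. At 5 min it had 10.1 and 9.87 RPKM against 15.2 and 16.4 RPKM, a limma log2 difference of 0.66 ± 0.17 (SE) with an adjusted p of 0.404, and 0.0188 with all 12 libraries. At 10 min it had 13.0 and 14.1 RPKM against 17.7 and 19.7 RPKM, again without overlap.

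Zfp982 (chr4:147443114-147516064) had 5.16 and 6.01 RPKM in WT and 5.63 and 5.26 RPKM in EloA null in steady state, where the genotypes overlapped. After FP it had 3.03 and 3.95 against 4.36 and 6.25 RPKM at 5 min (1.52-fold higher) and 4.81 and 5.42 against 7.02 and 7.70 RPKM at 10 min (1.44-fold higher). Zfp979 lay higher in EloA null without overlap in each condition, by 1.18-fold in steady state, 1.40-fold at 5 min and 1.26-fold at 10 min. Zfp984 did so at 10 min alone (1.26-fold). On the other side, Zfp990 was lower without overlap in all 3 conditions, by 1.24-fold, 1.17-fold and 1.18-fold, and Zfp980 and Zfp600 differed by less than 1.2-fold in each. The stretch thus held genes that differed in both directions.

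**Figure D3:**
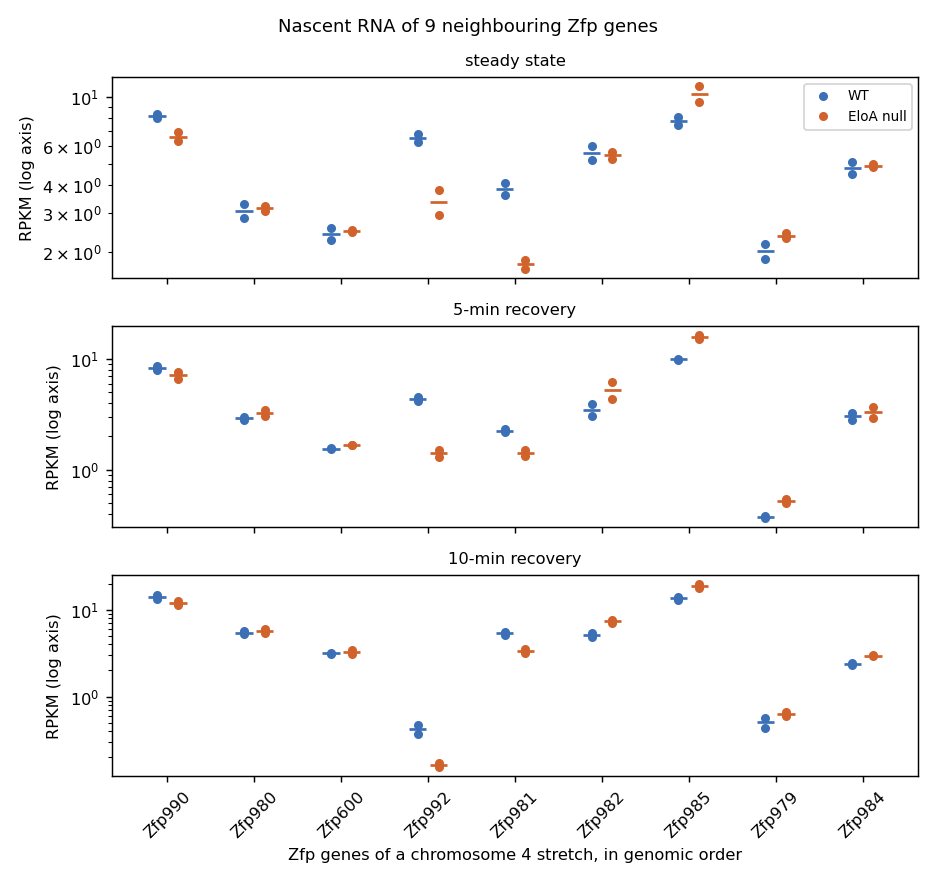
RPKM per library (log axis) of 9 Zfp genes in their order along chromosome 4, in steady state, 5-min recovery and 10-min recovery; points are libraries (2 WT, 2 EloA null) and bars are means. Zfp992 and Zfp981 are lower in EloA null in all 3 panels, and Zfp985 and Zfp979 are higher.

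These promoters are shown because Zfp981, lower in EloA null, and Zfp985 and Zfp979, higher, carry near copies of one promoter. Zfp984 has a further copy, and Zfp982 is shown for contrast. Zfp992 and Zfp990, the other lower genes of the stretch, were not among the promoters used, so that the lower side rests on Zfp981. In RefSeq (GRCm38.p6) each stretch runs from 250 bases before the start to 50 bases after it, on the strand of the gene, and capitals mark ATTGGGCGG, in which a CCAAT box read on the other strand overlaps the GC box. The stretches are chr4:146514670-146514969 (plus strand) for Zfp981, chr4:147553027-147553326 (plus) for Zfp985, chr4:147642459-147642758 (minus) for Zfp979, chr4:147809739-147810038 (minus) for Zfp984 and chr4:147442864-147443163 (plus) for Zfp982. The start used for Zfp981 lies 12920 bases inside the span of the gene used here.
Zfp981: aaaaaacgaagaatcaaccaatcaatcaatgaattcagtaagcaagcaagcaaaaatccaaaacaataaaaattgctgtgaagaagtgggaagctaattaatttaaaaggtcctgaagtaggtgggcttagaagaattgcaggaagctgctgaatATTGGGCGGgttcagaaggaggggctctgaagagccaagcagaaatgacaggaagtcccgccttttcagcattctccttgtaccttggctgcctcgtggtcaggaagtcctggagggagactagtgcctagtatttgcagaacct
Zfp985: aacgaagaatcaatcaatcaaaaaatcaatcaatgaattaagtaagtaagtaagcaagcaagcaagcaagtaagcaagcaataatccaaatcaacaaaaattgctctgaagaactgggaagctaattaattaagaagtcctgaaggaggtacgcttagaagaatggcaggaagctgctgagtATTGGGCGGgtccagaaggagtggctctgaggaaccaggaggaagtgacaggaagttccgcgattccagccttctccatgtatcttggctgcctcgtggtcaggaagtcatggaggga
Zfp979: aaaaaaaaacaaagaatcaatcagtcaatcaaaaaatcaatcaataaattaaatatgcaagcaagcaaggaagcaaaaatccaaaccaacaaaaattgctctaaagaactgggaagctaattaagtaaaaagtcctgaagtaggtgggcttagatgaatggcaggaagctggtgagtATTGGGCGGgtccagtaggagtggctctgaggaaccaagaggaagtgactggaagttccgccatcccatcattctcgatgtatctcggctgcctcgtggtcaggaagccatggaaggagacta
Zfp984: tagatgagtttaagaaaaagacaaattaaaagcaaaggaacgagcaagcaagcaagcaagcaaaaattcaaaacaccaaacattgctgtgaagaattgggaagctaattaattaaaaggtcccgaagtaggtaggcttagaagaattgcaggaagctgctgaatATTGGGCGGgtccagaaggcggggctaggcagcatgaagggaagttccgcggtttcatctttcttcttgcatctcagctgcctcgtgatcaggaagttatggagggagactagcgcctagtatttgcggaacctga
Zfp982: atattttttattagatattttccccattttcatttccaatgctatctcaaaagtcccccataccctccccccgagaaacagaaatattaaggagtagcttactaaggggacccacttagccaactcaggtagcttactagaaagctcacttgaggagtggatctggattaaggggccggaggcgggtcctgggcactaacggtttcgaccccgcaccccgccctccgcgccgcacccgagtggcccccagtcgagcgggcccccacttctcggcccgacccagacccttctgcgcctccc

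Zfp981, lower in EloA null, and Zfp985, higher, shared 79.7% of the 300 bases in a global alignment. Zfp985 and Zfp979 shared 86.7%, and Zfp981 and Zfp979 80.0%. The joined motif stood 95, 68, 73 and 86 bases before the start of Zfp981, Zfp985, Zfp979 and Zfp984. It was in 8 of 172 Zfp promoters (4.65%), in 0.427% of those of other genes and in 0.256% of all promoters, and 6 of the 8 Zfp genes were on this stretch of chromosome 4 (Zfp600 and Zfp980 besides these 4). Near copies of one promoter are counted separately in the Zfp share, so that these shares describe and do not test an excess. Zfp982 lacks the joined motif and shared between 54.0% and 59.0% with the others. Only 34.5% of the 31-base words of Zfp992 occurred once in the genome, and the share was 49.6% in Zfp981 and Zfp985, 50.3% in Zfp982 and 14.6% in Zfp979. Zfp981 also overlaps Zfp993 on its own strand and 1700095A21Rik on the other, and how reads were shared among these genes is not given in the sources used here. The part of repeated sequence in these differences was not tested.

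Of the 8 genes more than 1.5-fold higher at 10 min, 7 had a GC content of at least 50%. With the GC trend removed Zfp296 was the only one of these 7 to stay past 1.5-fold (log2 ratio 0.96), and Zfp219 (0.43), Zfp740 (0.42), Zfp553 (0.40), Zfp688 (0.40), Zfp771 (0.33) and Zfp414 (0.24) did not. The eighth, Zfp827, stayed (0.60). Of all 25 Zfp genes with such a GC content, 24 had a ratio above 1 in steady state (median log2 0.28) and 24 at 10 min (median 0.36), but 11 of 21 at 5 min (median 0.07). Among other genes of that class the medians were 0.21, 0.28 and -0.03, and 89.2%, 87.0% and 44.0% had a ratio above 1. Of 89 Zfp genes under 42%, 24 had a ratio above 1 in steady state (median -0.09), where 17.3% of other genes did (median -0.13). Across the Zfp genes the Spearman correlation of GC content with the log2 ratio was 0.53 in steady state (n = 209), 0.01 at 5 min (n = 188) and 0.36 at 10 min (n = 206), and over other genes it was 0.61, 0.09 and 0.52. Genes are not independent replicates, and the points share libraries and their base composition. The relation of the ratio to GC content was thus no property of the Zfp genes alone, and its cause was not tested.

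**Figure D4:**
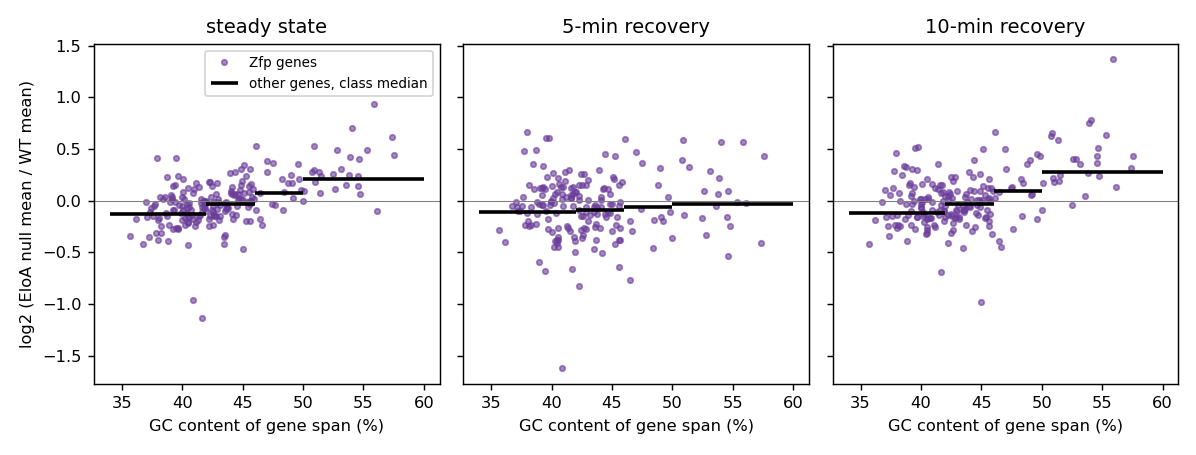
Log2 ratio of mean RPKM, EloA null over WT, against GC content of the gene span (%) for the expressed Zfp genes (points) in 3 conditions; black bars are medians of other genes below 42%, from 42 to 46%, from 46 to 50% and from 50% up. In steady state and 10-min recovery 24 of 25 Zfp genes from 50% up lie above 0 (89.2% and 87.0% of other genes). At 5 min 11 of 21 do (44.0% of other genes).

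Zfp296 (chr7:19577287-19580656, GC content 55.9%) had the largest difference at 10 min among the expressed Zfp genes. It had 2.28 and 2.31 RPKM in WT and 6.19 and 5.64 RPKM in EloA null. The limma log2 difference was 1.33 ± 0.10 (SE), with an adjusted p of 0.0779, and of 0.009 with all 12 libraries, from 79 to 297 reads a library. At 5 min its levels were 1.49 and 2.06 against 2.46 and 2.79 RPKM (1.48-fold). The 3.37 kb gene was higher without overlap in every condition. Zfp219 (chr14:52006075-52020733), the only Zfp gene of the set on chromosome 14, was 1.48-fold higher at 5 min and 1.72-fold higher at 10 min, with 4.39 ± 0.155 RPKM in WT and 7.53 ± 0.755 RPKM in EloA null at 10 min (SD, n = 2 each) and no overlap between the groups. It overlaps Arhgef40 and Tmem253 on the other strand, and although the libraries were directional and reads were separated by strand, whether the gene counts used strand is not given in the sources used here.

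A cluster of 4 on chromosome 7, from 127233061 to 127449158, held Zfp553, Zfp771, Zfp688 and Zfp689. At 10 min Zfp553 had 7.71 and 7.44 RPKM in WT and 14.3 and 11.2 RPKM in EloA null (1.68-fold higher). Zfp771 had 4.58 and 4.78 against 7.74 and 6.34 RPKM. Zfp688 was 1.54-fold and Zfp689 1.35-fold higher, and none of the 4 overlapped. Of 206 expressed Zfp genes, 26.7% were higher without overlap at 10 min. No share over all genes was worked out for this count, so it says nothing particular of the cluster. In steady state the median log2 ratio of these 4 was 0.28, and at 5 min 0.27. Zfp414, a GC-rich gene of 2.62 kb on chromosome 17, was 1.55-fold higher at 10 min. Over the other 16 clusters the median log2 ratio at 10 min lay between -0.24 and 0.40, the highest being that of Zfp982, Zfp985, Zfp979 and Zfp984.

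The remaining genes past 1.5-fold in recovery lay on other chromosomes or outside these clusters. Zfp740 had 0.861 and 0.660 RPKM in WT and 1.18 and 1.11 RPKM in EloA null at 5 min, and 1.88 and 1.54 against 3.17 and 2.22 RPKM at 10 min. Zfp827, which recruits the NuRD complex to telomeres, had 3.36 and 3.14 against 5.09 and 4.73 RPKM at 5 min and 1.85 and 1.79 against 2.87 and 2.90 RPKM at 10 min. These 2 were the Zfp genes more than 1.5-fold higher at both recovery times, a count for which no share over all genes was worked out. Zfp882 was 1.52-fold higher at 5 min. Lower at 5 min were Zfp286 (1.77-fold), Zfp664 (1.70-fold), Zfp959 (1.60-fold), Zfp180 (1.56-fold) and Zfp53 (1.51-fold), and none of these 5 was past 1.5-fold at 10 min. Zfp454 had 0.909 and 0.695 RPKM in WT and 0.413 and 0.402 RPKM in EloA null at 10 min (1.97-fold lower). Zfp286, Zfp664 and Zfp454 passed the filter on low values through WT alone, so their differences are given as values.

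Read by role, the genes that silence retroelements and imprinted loci come first. Of all expressed genes 9.31% passed 1.5-fold in either direction in steady state, 12.1% at 5 min and 12.4% at 10 min, so that lists of 6 to 9 genes would hold about 1 such gene or none at these shares, and counts near that say nothing particular of a list. Lack of overlap is given below as a description, and no share over all genes was worked out for it in a single condition. Of the expressed Zfp genes, 20.6% were higher and 27.3% lower without overlap in steady state. The shares were 17.0% and 24.5% at 5 min and 26.7% and 23.3% at 10 min. Of 7 listed KRAB genes 6 belonged to the set, and none of them passed 1.5-fold in any condition. Zfp57 had 33.5 and 34.6 RPKM in WT and 27.3 and 30.4 RPKM in EloA null at 5 min, and 59.0 and 49.8 against 49.7 and 47.5 RPKM at 10 min (limma log2 difference -0.16 ± 0.11 (SE), adjusted p 0.45). Zfp445, its partner at imprinted loci, had 10.7 and 12.5 against 11.8 and 11.9 RPKM at 10 min, a log2 difference of 0.03 ± 0.11 (SE) by limma. Zfp809, which reads the primer binding site of murine leukaemia virus, and Zfp568 lay within 1.2-fold in each condition. Zfp932, which binds endogenous retroviruses, had 5.31 and 5.46 against 5.85 and 6.30 RPKM at 10 min. Of the partners that KRAB proteins recruit, given by a list of 26 genes of the TRIM28 and SETDB1 pathway, 1 of 26 in steady state, 0 of 24 at 5 min and 1 of 25 at 10 min passed 1.5-fold (Daxx both times, higher). Trim28 itself was 27.8 and 26.8 RPKM in WT and 31.6 and 33.8 RPKM in EloA null in steady state.

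Of 7 listed stem cell factors 6 belonged to the set, and Zfp296 was the only one of these past 1.5-fold. Zfp281 fell below the limit (0.175 RPKM in WT steady state) on a mean of 1 read a library, which does not show that it was silent. Zfp462, which holds back lineage genes with the G9a methyltransferase, was higher without overlap in each condition, with log2 ratios of 0.27, 0.30 and 0.28. Zfp292 was lower without overlap, by 1.08-fold, 1.31-fold and 1.16-fold. Zfp143, an activator that binds at promoters, was lower without overlap in steady state (log2 ratio -0.08) and at 5 min, with 1.90 and 1.66 RPKM in WT and 1.53 and 1.46 RPKM in EloA null (log2 ratio -0.25). At 10 min the genotypes overlapped, at 1.97 and 2.27 against 2.30 and 2.05 RPKM. Zfp217, a partner of CoREST, and Zfp322a, an activator of Pou5f1, lay within 1.2-fold in all 3 conditions.

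Of 9 listed chromatin cofactors 8 belonged to the set, and of these Zfp827 alone passed 1.5-fold. Zfp532, which together with Zfp592 and Zfp687 forms a complex around ZMYND8, was higher by 1.30-fold, 1.38-fold and 1.41-fold, with 2.95 and 2.67 against 4.17 and 3.61 RPKM at 5 min. Zfp687 was higher without overlap in steady state (log2 ratio 0.15) and at 10 min (0.43, against 0.50 for Zfp532), and at 5 min it had -0.16 with overlap. Zfp592 had 0.02, -0.16 and -0.13 in the 3 conditions, without overlap at 10 min alone. Zfp644, of the G9a complex, and Zfp609, a partner of the cohesin loader NIPBL, had log2 ratios of -0.30 and -0.26 at 5 min, the first without overlap and the second with it. Zfp451, a SUMO ligase, was lower without overlap in each condition, by 1.10-fold, 1.23-fold and 1.10-fold. Zfp335, part of an H3K4 methyltransferase complex, lay within 1.2-fold in each condition.

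Of 10 genes listed for products that act on RNA or protein 9 belonged to the set. None of these passed 1.5-fold in any condition, a count near the shares given above. The list includes Zfp638, although its product also acts on retroviral DNA. Zfp638 had the largest difference of the list, at 5 min, with 1.46 and 1.34 RPKM in WT and 1.17 and 0.965 RPKM in EloA null (1.32-fold lower, without overlap). Zfp207 was 1.28-fold lower in steady state, with 11.2 and 9.65 RPKM in EloA null. Zfp598, a ubiquitin ligase that marks collided ribosomes, was 1.29-fold higher at 10 min, with 4.42 and 5.05 against 6.72 and 5.46 RPKM. Zfp622, a factor of the large ribosomal subunit, had 28.1 and 31.2 against 28.9 and 30.3 RPKM at 10 min. Of 7 developmental factors 1 was transcribed above the limit, Zfp704, with 3.12 and 3.23 against 3.17 and 3.25 RPKM at 10 min. Below the limit, Zfp703 and Zfp503 rested on a mean of 2.5 and 2 reads a library in steady state. Values on so few reads do not show that these genes were silent. The interval that 2 libraries a group allow is wide, so that the values given by role do not show equality.

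The return of transcription after FP differed among the Zfp genes far more than the genotypes did. The value used is the RPKM of a recovery library over the steady-state mean of the same genotype. Since the tables were scaled separately, it is a share relative to the other genes and not an absolute amount. The median of the Zfp genes was 0.772 in WT and 0.746 in EloA null at 5 min, and 1.67 and 1.72 at 10 min. With each library divided by its median these were 1.18 and 1.27 at 5 min and 1.61 and 1.63 at 10 min, so that the 5-min ratio lay below or above 1 by the choice of scaling. Other protein-coding genes had 0.665 and 0.609 at 5 min and 1.16 at 10 min in both. In EloA null the ratio was higher at 10 min than at 5 min in 192 of 209 genes (91.9%), and in 82.3% of 7178 other genes. Of the 17 in which it was lower, 11 were among the 27 genes longer than 40 kb.

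The distance to other genes depended on the length of the gene. Among genes of 10 to 20 kb, the class of 100 Zfp genes, the EloA null medians were 0.892 ± 0.082 (SD, n = 2 libraries) against 0.668 ± 0.042 for 1441 other genes at 5 min, and 2.29 ± 0.011 against 1.93 ± 0.12 at 10 min. Among genes of 20 to 40 kb they were 0.574 against 0.448 and 1.51 against 1.28. Under 10 kb they were 0.807 against 0.814 and 1.55 against 1.65, so there the Zfp genes did not lie above. Over 40 kb they lay above at 5 min (0.683 against 0.581, but 0.612 against 0.624 in WT) and below at 10 min (0.629 against 0.678). In WT the medians at 10 to 20 kb were 0.882 against 0.725 and 2.20 against 1.92. When genes were classed by summed intron length, a choice made after the data were seen, those under 10 kb also lay above other genes at 10 min (2.14 against 1.72), and those over 40 kb lay above at 5 min (0.736 against 0.611) and below at 10 min (0.611 against 0.660). No test was made of these medians, since the genes were chosen by a level that stands in the denominator.

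**Figure D5:**
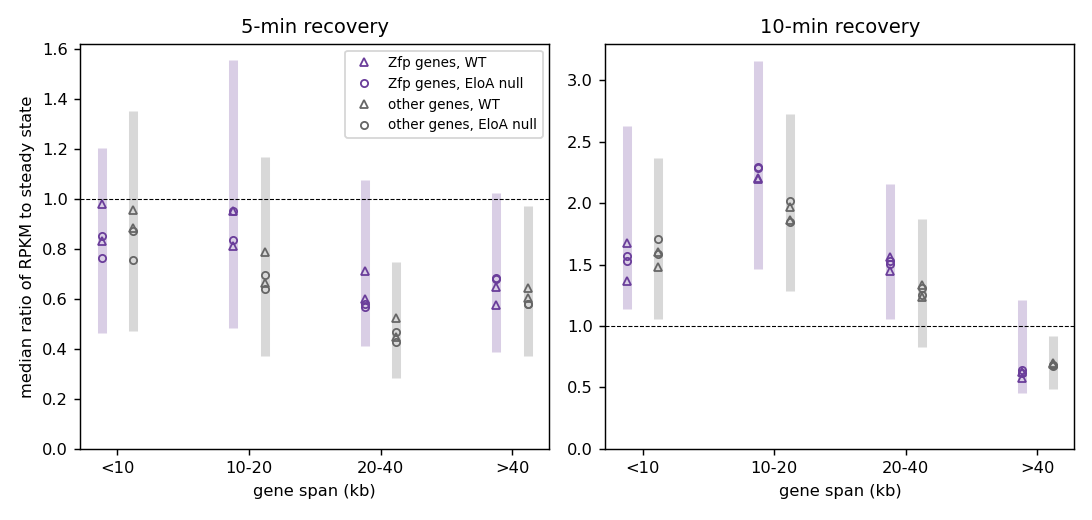
Median ratio of recovery RPKM to steady-state RPKM by class of gene span, for Zfp genes and other protein-coding genes, 1 symbol per library (triangles WT, circles EloA null); pale bars run from the lower to the upper quartile of the genes in EloA null. At 10 to 20 kb the Zfp medians lie at 2.20 to 2.30 in 10-min recovery and those of other genes at 1.85 to 2.01, and above 40 kb both lie below 1.

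The genes that returned most in EloA null at 10 min were Zfp345 (8.20 times steady state), Zfp622 (5.93), Zfp932 (5.77), Zfp748 (5.07) and Zfp33b (4.90), and all 5 span between 12.9 and 14.5 kb. Zfp345 had 0.942 and 1.08 RPKM in WT steady state, 4.04 and 5.27 RPKM at 5 min and 7.30 and 9.53 RPKM at 10 min. Its EloA null values were 1.07 and 1.01, 3.82 and 6.43, and 7.65 and 9.37 RPKM. The genotypes overlapped in each condition. Zfp622 had 5.25 RPKM in both WT steady-state libraries and 28.1 and 31.2 RPKM at 10 min. Under 50% of the words of Zfp345 (35.0%) and Zfp932 (36.4%) occur once in the genome, whereas in Zfp622 98.9% do.

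The genes with the lowest 10-min ratios in EloA null were Zfp652 (0.0442), Zfp992 (0.0482), Zfp90 (0.193), Zfp638 (0.219) and Zfp979 (0.267). Zfp992 was lower at 10 min than at 5 min in both genotypes. Its WT means were 6.53 RPKM in steady state, 4.35 at 5 min and 0.419 at 10 min. In EloA null they were 3.36, 1.41 and 0.162 RPKM. Zfp652 had 1.65 and 1.61 RPKM in WT steady state and 0.106 and 0.122 RPKM at 10 min, on 18 to 35 reads a library. Zfp90 had 1.08 and 1.12 RPKM in WT steady state, 0.064 and 0.0797 RPKM at 5 min and 0.275 and 0.195 RPKM at 10 min. Zfp638, which silences unintegrated retroviral DNA, is long (72.5 kb), but Zfp652 (15.6 kb) and Zfp90 (11.6 kb) fall in the class with the highest median. Zfp992 and its neighbour Zfp981 lay on opposite sides, at 0.0482 and 1.91 times steady state in EloA null and at 0.0642 and 1.40 times in WT. Ratios at 10 min were in the same order in the genotypes (Spearman 0.985 over 209 genes, a description).

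Promoters with most CpG returned least among the Zfp genes. The 15 with 30 or more CpG in the 300 bases had a 10-min median of 0.790 ± 0.070 (SD, n = 2 EloA null libraries) and a median span of 25.9 kb, against 1.88 ± 0.090 and 15.7 kb for the 45 with fewer than 10. Among other genes the same classes had 1.07 and 0.899. Their classes from 10 to below 20 and from 20 to below 30 CpG had 1.29 and 1.24, above both, so that they showed no steady trend. In Zfp genes these middle classes had 1.91 and 1.71, so that only the class with most CpG stood apart. The Zfp classes with most and fewest CpG also differ in span, and the part of length in their difference was not tested.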

How the data were processed

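Per the labels and the study's methods, the authors aligned paired-end Bru-seq reads to mm10 and dm3 with Bowtie2 (2.3.4.3), kept uniquely aligned reads, counted them over RefSeq genes with featureCounts (1.6.1), normalised them with edgeR and deposited RPKM values, 1 table per condition with 4 libraries each. The libraries were directional and reads were separated by strand. The version of edgeR and whether the gene counts used strand are not given in the sources used here. The 16 CUT&RUN and ChIP-seq samples were not analysed here. The authors' mean columns were not read, and members were chosen on the mean of the 2 WT libraries computed from their own columns.

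Genes were matched to RefSeq (GRCm38.p6). Library sizes and reads were worked out from the steps of the RPKM values, a method tested on simulated data: with summed intron lengths 96.9% to 97.2% of expressed genes gave whole reads (within 0.05, under 2000 reads), and with lengths 37 bases longer 4.97% to 10.0%. Counting error was smaller than the spread between replicates.

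The members, gene lists and tests were chosen with earlier results of these data known. Ratios are of mean RPKM. log2(RPKM + 0.1) of all genes above 0.5 RPKM in either genotype was fitted with limma (3.58.1, R 4.3.3, trend option), within 1 table, with Benjamini-Hochberg adjustment over them, and the genotype effect at 10 min was set against that at 5 min in the 8 recovery libraries. Steady state was not tested, because its WT libraries chose the members. Named genes were the 10 highest, the 5 largest rises and falls past 1.5-fold without overlap and with at least 20 reads in each condition, the 3 on each side of the limit, the 5 highest and 5 lowest 10-min ratios in EloA null, members of the role lists and of clusters, and any limma call; Zfp715, Zfp180, Zfp53, Zfp593, Zfp960 and Zfp600 were named after their values were seen. Promoters were aligned with Biopython (1.88). Alternatives covered the filter, the fold limit, the scaling, GC content, length, the pseudocount, the replicate block, a fit of all 12 libraries and leaving out each library.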

Additional observations from a re-analysis of the deposited data

Results flagged for a closer look

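Of the named genes, 3 were flagged because both EloA null libraries lay on one side of both WT libraries in steady state and on the other side at 5-min recovery; the difference was not tested in these pairs of conditions. The log2 ratio of Zfp90 was 0.31 in steady state and -0.42 at 5 min, where it had 5 to 8 reads a library. That of Zfp819 was 0.16 in steady state and -0.38 at 5 min, with 2.01 and 1.83 against 2.22 and 2.07 RPKM and then 1.12 and 1.05 against 0.736 and 0.924 RPKM. That of Zfp597, the gene just above the limit of 1 RPKM, was -0.25 in steady state and 0.28 at 5 min.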

How the results depend on the processing

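A limit of 2-fold left 1 Zfp gene in each condition (lower in steady state and at 5 min, higher at 10 min). Of all expressed genes 2.78%, 4.88% and 3.97% passed it. Removal of the GC trend gave 3 past 1.5-fold in steady state (6.95% of all expressed genes) and 6 at 10 min (9.51%). Libraries divided by their median gave 5 at 10 min (10.8%). Genes with at least 50% unique words, chosen after the data were seen, gave 3 in steady state (9.31%). Leaving out 1 library gave 4 to 8 genes in steady state (8 without the first WT or the first EloA null library), 9 to 26 at 5 min (26 without the second WT library) and 7 to 15 at 10 min. With all 12 libraries in 1 fit limma called 8 Zfp genes at 5 min (5.92% of all genes) and 5 at 10 min (2.58%). Zfp664 was among the 8 and entered the test through WT alone. With the replicate block limma called 1 at 5 min (1.42% of all genes) and 0 at 10 min. Same-numbered libraries deviated together with correlations of 0.101, 0.119 and 0.103 over all genes (0.122, 0.639 and 0.587 over the Zfp genes), and with only 2 pairs a condition the numbers were not shown to pair the samples. The limma count was 0 with the other pseudocounts and without a filter, and also on leaving out 1 library, where the lone library is assumed to vary like the other group, so that this 0 is no sign of stability, and the count for the change from 5 to 10 min was 0 under each alternative run for it. The median genotype difference was -0.10 at 10 min with libraries divided by their median, and leaving out 1 library moved it between -0.092 and 0.037 in steady state, between -0.14 and 0.03 at 5 min and between -0.012 and 0.0051 at 10 min. With libraries divided by their median the recovery ratio was 1.18 (WT) and 1.27 (EloA null) at 5 min and 1.61 and 1.63 at 10 min. Leaving out 1 library moved it between 0.707 and 0.837 (WT) and between 0.722 and 0.802 (EloA null) at 5 min, and between 1.63 and 1.71 (WT) and between 1.65 and 1.84 (EloA null) at 10 min. No named gene past 1.5-fold changed direction under the alternatives run for it. The causes of these differences between settings were not tested. At 5 min, the shallowest libraries, 9 Zfp genes rested on fewer than 20 reads.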
